A study of Mus musculus with 4 samples.

Results

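The Slc25a genes encode solute carriers of the mitochondrial inner membrane, and they were taken here as every gene in the table whose symbol starts with Slc25a, 37 of 14979 genes listed. The tumours came from the colons of AOM/DSS mice, which receive the carcinogen azoxymethane and the colitis-inducing agent dextran sulfate sodium, so that tumours arise in inflamed colon. One group of 2 mice had been treated with a MAdCAM-1 antibody, directed at an adhesion molecule of gut vessels to which lymphocytes bind, and the control group of 2 mice with an IgG antibody. All 4 mice carried AOM/DSS tumours, and no untreated colon was analysed here. The design text names 2 mice from each group, and each library is taken here as 1 mouse, although the labels number the libraries as replicates without naming the animals. An opening line of that text counts methods and mice in a way that could not be matched to the 4 libraries. All were made by cap analysis of gene expression (CAGE), a method that counts tags read from capped 5′ ends of RNA, and the libraries are named IgG 1, IgG 2, MAdCAM1 1 and MAdCAM1 2. Strain, sex, age and antibody dose are not given in the sources used here.

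Respiration, biosynthesis and amino acid breakdown need metabolites to cross the inner mitochondrial membrane, which lets few charged molecules pass unaided. Slc25 carriers are small proteins of repeated membrane-spanning modules that mostly exchange one solute for another, and each member handles a narrow set of substrates. In colon epithelium, where mature colonocytes oxidise butyrate for energy, they link the respiratory chain, fatty acid oxidation and the export of citrate for lipid synthesis.

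CAGE reads the transcription start, so the stretch just upstream of it is shown for 3 carriers described in most detail. They are the adenine nucleotide carriers Slc25a4, which was lower in both MAdCAM1 libraries, and Slc25a5, which was higher in both, and the acylcarnitine carrier Slc25a20. None of the 3 passed edgeR's test (adjusted p = 0.670, 0.731 and 0.677). Each sequence is the 150 bases before the start of the canonical GENCODE M39 transcript on GRCm39, written 5′ to 3′ on the gene's strand, with the letters of any motif searched in capitals. The table gives no tag positions, so these starts are the annotated ones. Slc25a4 lies at chr8:46664326-46664475 (minus strand), Slc25a5 at chrX:36059073-36059222 (plus strand) and Slc25a20 at chr9:108539147-108539296 (plus strand).
Slc25a4: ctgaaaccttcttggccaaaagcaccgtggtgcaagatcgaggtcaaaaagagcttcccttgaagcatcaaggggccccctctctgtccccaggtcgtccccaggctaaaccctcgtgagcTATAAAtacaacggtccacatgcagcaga
Slc25a5: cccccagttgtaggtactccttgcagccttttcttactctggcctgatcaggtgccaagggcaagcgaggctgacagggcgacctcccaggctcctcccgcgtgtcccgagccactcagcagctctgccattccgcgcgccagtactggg
Slc25a20: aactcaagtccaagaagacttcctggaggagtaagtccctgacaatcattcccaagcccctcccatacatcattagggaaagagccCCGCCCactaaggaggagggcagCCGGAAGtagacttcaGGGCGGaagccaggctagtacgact
The motif TATAAA began 29 bases upstream of the Slc25a4 start and was not in the stretch of Slc25a5. The stretch of Slc25a20 held the GC box GGGCGG at 2 places, on either strand, and the ETS motif CCGGAAG at 1. The annotated interval of Slc25a20 begins at 108539250, upstream of the canonical start, and holds the ETS motif and 1 of the GC boxes.

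Motif letters were counted on both strands from 250 bases before to 50 bases after the start, for 37 carriers and 14262 genes. TATAAA was in 3 of the 37 windows (8.11%) and in 9.63% of all windows. GGGCGG was in 26 (70.3%, against 54.96%), CCGGAAG in 7 (18.9%, against 14.7%) and the CCAAT box CCAAT in 16 (43.2%, against 39.0%). The E-box CACGTG was in 9 windows (24.3%, against 9.37%) and the CRE TGACGTCA in 2 (5.41%, against 3.02%). The estrogen-related receptor motif TCAAGGTCA and the exact 10-letter NRF1 motif were in 0 of the 37 windows, against 0.407% and 1.67% of all windows. CpG dinucleotides numbered 1 to 47 per window with a median of 15 in the carriers, and the median over all genes was 16. These matches describe letters in a window and were not tested.

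The libraries held 14850923 to 16891234 tags, and levels are given as CPM, tags scaled to library size with TMM factors of 0.962 to 1.04, so that 1 tag equals 0.0569 to 0.0700 CPM. A CAGE tag marks 1 end of an RNA, so levels of different genes were compared without a correction for length. Log2 fold changes are MAdCAM1 over IgG from edgeR's quasi-likelihood fit over 14331 genes with enough tags. Of the 37 carriers, 36 had enough tags to be tested, and Slc25a45 did not. Markers of epithelium were higher in both MAdCAM1 libraries for 9 of 10 genes (19.7% of all genes), and their summed level was 7420.4 and 6596 CPM in the IgG libraries against 11844 and 10197 CPM. Colonocyte markers were higher in both for 10 of 12 genes, with sums of 645 and 461 against 1980.1 and 1354 CPM, and 0 markers of either list were at 0 tags in any library. Goblet cell markers were higher in both for 8 of 10 genes, with sums of 2716 and 1164 against 10343 and 7267 CPM. The summed levels of fibroblast, neutrophil, macrophage, T cell, B and plasma cell and erythroid markers overlapped between the groups. Of 6 B and plasma cell markers, Jchain, at 8.14 and 35.4 against 42.7 and 449.5 CPM, and Mzb1, at 0.285 and 0.433 against 1.33 and 8.74 CPM, were higher in both MAdCAM1 libraries. Mzb1 reached the 0.632 CPM (before TMM scaling) of the tag filter in its MAdCAM1 libraries alone, so its direction was built in. The median log2 fold change of the 6 was 1.98, between those of Cd79a (2.48) and Cd79b (1.49), whose groups overlapped. Cd79a stood at 8.76 and 2.23 against 1.12 and 60.3 CPM, and Cd79b at 1.37 and 0.433 against 0.280 and 4.79 CPM. Both were highest in MAdCAM1 2 and lowest in MAdCAM1 1. Sdc1 and Xbp1 also overlapped, with log2 fold changes of −0.29 and 0.13. Of 7 neutrophil markers, Ly6g, at 55.9 and 36.0 against 126 and 188 CPM, was higher in both, and Ngp, at 6.03 and 7.30 against 0.140 and 1.23 CPM, and Camp, at 2.11 and 1.86 against 0.0700 and 0.194 CPM, were lower in both. None of these markers passed edgeR's quasi-likelihood test, which called 0% of all genes in each direction. At an adjusted p under 0.05, DESeq2 called 4 of 10 epithelial, 6 of 12 colonocyte, 5 of 10 goblet cell and 1 of 7 neutrophil markers (1.54% of all genes called higher and 0.147% lower). The edgeR exact test called 1, 6, 4 and 2 in the same lists (1.06% and 0.0628%). Both called 0 of 6 B and plasma cell markers. Both called the colonocyte marker Aqp8, which passed the tag filter through its MAdCAM1 libraries alone, at 8 and 1 against 162 and 52 tags. The exact test called the neutrophil marker Camp, which passed through its IgG libraries alone, at 37 and 30 against 1 and 3 tags. The directions of Aqp8 and Camp were thus built in, and their calls are no support for a difference. Limma-voom called 0% of all genes. Of 6 adipocyte markers, 0 were listed. Smooth muscle markers followed single libraries, with sums of 1656 CPM in IgG 1, 89.0 CPM in IgG 2, 106 CPM in MAdCAM1 1 and 1877 CPM in MAdCAM1 2. In bulk tumour RNA, a change in the number of cells of a type and a change in RNA per cell cannot be told apart, and the part of these markers in the carrier values was not tested.

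Across the family, log2 fold changes lay on both sides of 0 and most were small. No carrier passed the test: edgeR's quasi-likelihood test with Benjamini-Hochberg adjustment called 0 of 36 higher and 0 of 36 lower at an adjusted p under 0.05, where it also called 0% of all genes in each direction. The smallest adjusted p of a carrier was 0.670, for Slc25a4. At an unadjusted p under 0.05 in that test, 3 of 36 carriers were higher (Slc25a20, Slc25a13 and Slc25a34, against 5.09% of all genes) and 1 of 36 lower (Slc25a4, against 1.82%). Slc25a34 passed the tag filter through its MAdCAM1 libraries alone. Its direction was thus built in, and its p is no support for a difference. The edgeR exact test, DESeq2 and limma-voom each called 0 carriers as well, at 1.06%, 1.54% and 0% of all genes called higher and 0.0628%, 0.147% and 0% called lower. The median log2 fold change of the 36 carriers was 0.016, against −0.0012 over all tested genes, with 18 above and 18 below 0. Values ran from −0.65 for Slc25a32 to 2.15 for Slc25a34, and 23 of the 36 lay within 0.3 of 0. The median absolute log2 fold change was 0.23 for the carriers and 0.21 for all tested genes.

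Levels of the antibody groups did not overlap for 14 carriers. Both MAdCAM1 libraries lay above both IgG libraries for 11 of 36 (30.6%; 19.7% of all genes) and below them for 3 of 36 (8.33%; 18.7% of all genes). Slc25a34 entered the test only through its MAdCAM1 libraries, and without it the count was 10 of 35. When levels were scaled to library size only, at a median of −0.099 over all genes, 10 carriers were higher and 7 lower (13.6% and 28.7% of all genes). With 1 library left out, fewer values have to part, and the refitted filter let in the thin Slc25a45 except without MAdCAM1 1. Without IgG 1, 17 of 37 carriers were higher and 11 lower (45.9% and 29.7%, against 35.1% and 38.7% of all genes). Without IgG 2 the counts were 16 and 12 of 37 (43.2% and 32.4%, against 33.1% and 34.0%). They were 12 and 13 of 36 without MAdCAM1 1 (33.3% and 36.1%, against 34.2% and 36.0%). Without MAdCAM1 2 they were 17 and 5 of 37 (45.9% and 13.5%, against 33.9% and 32.5%).

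The summed level of the 37 carriers was 2277 and 2254 CPM for IgG, 2578 and 2452 CPM for MAdCAM1. Carriers of adenine nucleotides and phosphate made up 46.2% and 45.2% of that sum in IgG and 47.8% and 48.2% in MAdCAM1. Carriers of di- and tricarboxylates made up a further 13.1% to 14.2% in the 4 libraries. The family's sum was thus led by a few abundant members, and Slc25a3 alone ranked 182 of 14331 tested genes by mean CPM.

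**Figure D1:**
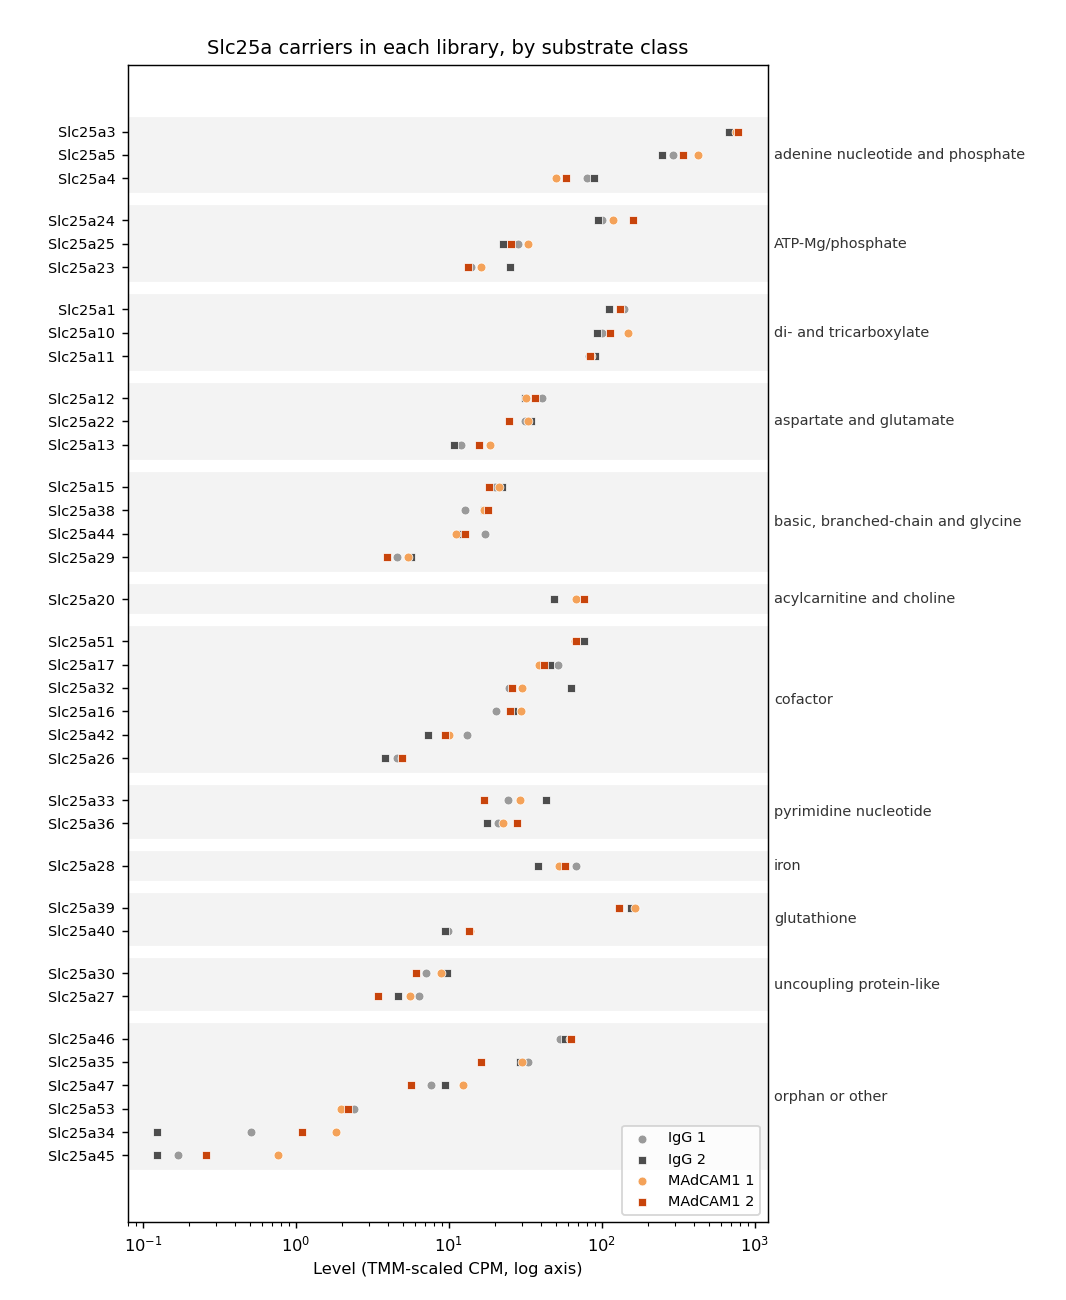
Level of 36 of the 37 Slc25a genes in each library, in TMM-scaled CPM on a log axis, grouped by substrate; each point is 1 library (grey, IgG; orange, MAdCAM1). Slc25a3 at 679 to 784 CPM stood highest, Slc25a34 and Slc25a45 lowest, and the points of most genes lie close together.

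Slc25a3 and the adenine nucleotide carriers supply ATP synthase with phosphate and ADP and bring its ATP out. Slc25a3 (chromosome 10, 90951400 to 90975683, GRCm39), the phosphate carrier, stood at 679 CPM in IgG 1, 682 CPM in IgG 2, 755 CPM in MAdCAM1 1 and 784 CPM in MAdCAM1 2. Both MAdCAM1 values were the higher ones, by a log2 fold change of 0.18 (SE 0.14, edgeR adjusted p = 0.849). Slc25a5 (chromosome X, 36059223 to 36062462), the adenine nucleotide translocase ANT2 of dividing cells, stood at 293 CPM in IgG 1, 246 CPM in IgG 2, 427 CPM in MAdCAM1 1 and 338 CPM in MAdCAM1 2. The groups did not overlap, with a log2 fold change of 0.50 (SE 0.20, edgeR adjusted p = 0.731). Slc25a4 (chromosome 8, 46656538 to 46664325), the isoform ANT1 that is most abundant in heart and muscle, stood at 80.6 CPM in IgG 1, 88.8 CPM in IgG 2, 50.5 CPM in MAdCAM1 1 and 58.1 CPM in MAdCAM1 2. Its groups parted the other way, with a log2 fold change of −0.64 (SE 0.15, edgeR adjusted p = 0.670). The Slc25a4 difference lay between −0.75 and −0.55 when each library was left out, and that of Slc25a5 between 0.33 (without MAdCAM1 1) and 0.66 (without MAdCAM1 2). Smooth muscle markers summed to 1656 and 89.0 CPM in IgG, where Slc25a4 stood at 80.6 and 88.8 CPM. In MAdCAM1 they summed to 106 and 1877 CPM, where it stood at 50.5 and 58.1 CPM. The part of muscle in these values was not tested. Slc25a5 has an annotated pseudogene copy, Slc25a5-ps, and how tags that fit both were counted is not given in the sources used here.

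The balance of the ANT isoforms does not depend on library scaling. Slc25a4 supplied 21.6% of the tags of both genes in IgG 1 (95% exact Clopper-Pearson interval 20.6% to 22.6%) and 26.5% in IgG 2 (25.3% to 27.7%). In MAdCAM1 1 it supplied 10.6% (9.86% to 11.3%) and in MAdCAM1 2 14.6% (13.8% to 15.6%). Both MAdCAM1 shares lay below both IgG shares, and the intervals cover counting error only, not the spread between mice. This pair was singled out after its values were seen, and with 2 mice against 2 an exact two-sided permutation test cannot give a p below 0.333.

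**Figure D2:**
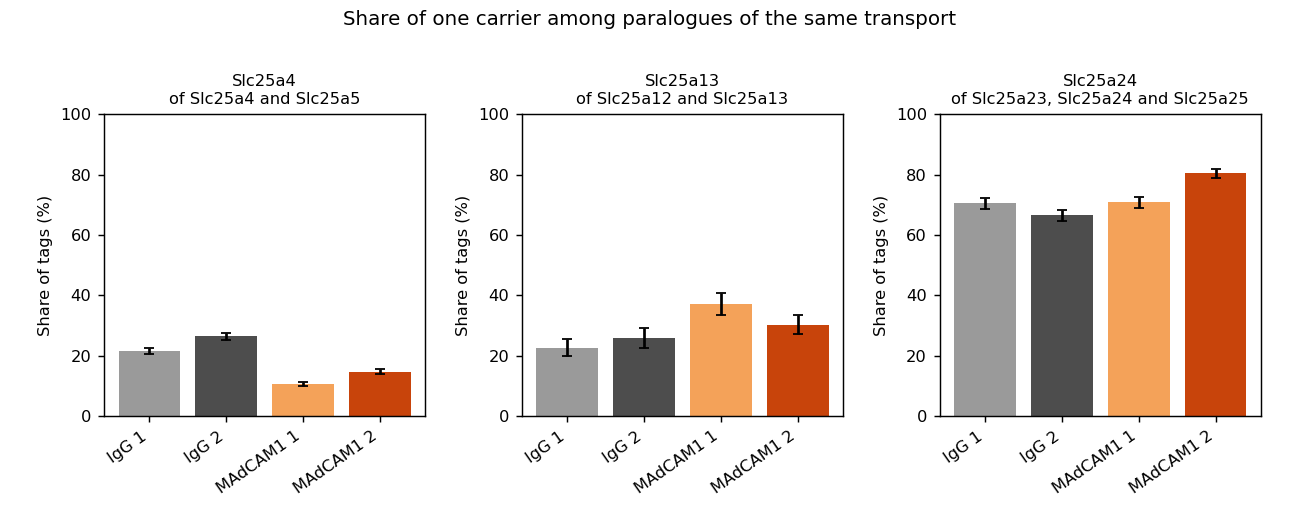
Share of tags (%) that 1 carrier supplied among paralogues of the same transport, per library, with exact 95% binomial intervals as error bars. Slc25a4 gave 21.6% and 26.5% of ANT tags in IgG and 10.6% and 14.6% in MAdCAM1, Slc25a13 gave a larger share in both MAdCAM1 libraries, and the Slc25a24 share stood out in MAdCAM1 2.

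ATP-Mg/phosphate carriers set the adenine nucleotide content of the matrix and are regulated by calcium. Slc25a24 (chromosome 3, 109030317 to 109075773) was the most abundant and stood at 101 CPM in IgG 1, 94.9 CPM in IgG 2, 119 CPM in MAdCAM1 1 and 160.0 CPM in MAdCAM1 2, with a log2 fold change of 0.51 (SE 0.20, edgeR adjusted p = 0.731). MAdCAM1 2 held the highest value, and without that library the log2 fold change was 0.28. Slc25a25 overlapped between the groups at 28.5, 22.5, 32.8 and 25.6 CPM, where lists of 4 values name the IgG libraries first, each group by replicate number. Slc25a23 stood apart in 1 control library, at 13.9, 25.2, 16.2 and 13.4 CPM, and its log2 fold change of −0.40 became 0.083 without IgG 2. Among the tags of these 3 genes, Slc25a24 supplied 70.5%, 66.5%, 70.8% and 80.4%. IgG 1 and MAdCAM1 1 lay within each other's counting intervals (68.6% to 72.2% and 69.0% to 72.7%).

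Carriers of citric acid cycle intermediates were among the abundant members. Slc25a1, which exports citrate for fatty acid and sterol synthesis, was the highest at 140.5, 111, 132 and 132 CPM, and the IgG libraries spanned both MAdCAM1 values (log2 fold change 0.069, SE 0.17, edgeR adjusted p = 0.961). Slc25a10 (chromosome 11, 120382359 to 120391985), which exchanges malate or succinate for phosphate, stood at 101 CPM in IgG 1, 92.6 CPM in IgG 2, 148 CPM in MAdCAM1 1 and 113 CPM in MAdCAM1 2. Both MAdCAM1 libraries were above both IgG libraries, with a log2 fold change of 0.44 (SE 0.19, edgeR adjusted p = 0.742), and without MAdCAM1 1 the log2 fold change was 0.23. Slc25a11, the malate and 2-oxoglutarate exchanger of the malate-aspartate shuttle, held a narrow range in all libraries at 82.9, 90.2, 85.3 and 84.2 CPM. Genes that make or use exported citrate parted upwards in MAdCAM1 for 4 of 6 members and downwards for 1, against 19.7% and 18.7% of all genes (median log2 fold change 0.28). Citrate synthase Cs stood at 215 and 194 against 293 and 240.0 CPM, Acly, which splits citrate in the cytosol, at 135 and 127 against 180.5 and 191 CPM, and the fatty acid synthase Fasn at 144 and 156 against 122 and 112 CPM. Acly and Cs were higher and Fasn was lower in both, none past edgeR's test (adjusted p = 0.691, 0.759 and 0.731).

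The aspartate/glutamate carriers Slc25a12 and Slc25a13 pass aspartate out of mitochondria for the malate-aspartate shuttle, and Slc25a22 imports glutamate. Slc25a12 (aralar), the most abundant of the 3, overlapped at 40.8, 31.4, 31.9 and 36.6 CPM (log2 fold change −0.078, SE 0.20, edgeR adjusted p = 0.963). Its higher values were in IgG 1 and MAdCAM1 2, the libraries in which smooth muscle markers summed to 1656 and 1877 CPM, and the part of muscle was not tested. Slc25a13 (citrin, chromosome 6, 6040252 to 6217294) stood at 11.9 CPM in IgG 1, 10.9 CPM in IgG 2, 18.7 CPM in MAdCAM1 1 and 15.9 CPM in MAdCAM1 2. Groups did not overlap, with a log2 fold change of 0.60 (SE 0.21, edgeR adjusted p = 0.713), and the value ran from 0.47 to 0.71 with each library left out. The share of Slc25a13 in the tags of both aspartate/glutamate carriers was 22.7% and 25.7% in IgG and 37.0% and 30.2% in MAdCAM1. The intervals of IgG 2 (22.5% to 29.2%) and MAdCAM1 2 (27.1% to 33.5%) overlapped. Slc25a22 stood at 31.4, 34.4, 32.8 and 24.8 CPM, with the lowest value in MAdCAM1 2. Of the 4 shuttle enzymes, 1 parted upwards in MAdCAM1 (Got1, at 18.3 and 13.7 against 20.3 and 21.9 CPM) and 0 downwards, against 19.7% and 18.7% of all genes (median 0.085).

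Slc25a20 carries acylcarnitines into the matrix in exchange for carnitine, the step by which long-chain fatty acids reach beta-oxidation. It (chromosome 9, 108539250 to 108562760) stood at 48.8 CPM in IgG 1, 49.2 CPM in IgG 2, 67.8 CPM in MAdCAM1 1 and 76.8 CPM in MAdCAM1 2. The IgG libraries were nearly equal and both MAdCAM1 libraries lay above them, which gave a log2 fold change of 0.56 (SE 0.14, edgeR adjusted p = 0.677). Leaving out each library gave 0.47 to 0.65. Of 9 tested genes of the carnitine shuttle and beta-oxidation, 4 lay above both IgG libraries in the MAdCAM1 group and 0 below (19.7% and 18.7% of all genes), at a median of 0.18, against −0.0012 over all genes. Acadl, a long-chain acyl-CoA dehydrogenase, stood at 237 and 160.0 against 257 and 306 CPM, Acadm, its medium-chain counterpart, at 83.4 and 83.7 against 97.4 and 91.8 CPM, and Hadha, a subunit of the trifunctional protein, at 68.9 and 68.8 against 92.8 and 76.8 CPM. Cpt2, which re-forms acyl-CoA after Slc25a20, overlapped at 65.0, 92.5, 75.1 and 57.1 CPM. None of the 9 passed edgeR's test.

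Of the carriers of other amino acids, 0 of 4 had groups without overlap, where 19.7% of all genes were higher and 18.7% lower. Slc25a15, the ornithine and citrulline exchanger of the urea cycle, stood at 20.03, 22.3, 21.3 and 18.3 CPM (log2 fold change −0.095, SE 0.19, edgeR adjusted p = 0.949). Slc25a38, which imports glycine for haem synthesis, stood at 12.7, 16.94, 16.94 and 18.0 CPM. Slc25a44, a carrier of branched-chain amino acids, stood at 17.4, 11.5, 11.2 and 12.8 CPM and was highest in IgG 1. Slc25a29, which carries basic amino acids, was low at 4.61, 5.63, 5.39 and 3.95 CPM. The levels of Slc25a38 and Slc25a44 in IgG 1 and IgG 2 differed by more than those of the MAdCAM1 libraries. Of 7 tested genes of mitochondrial one-carbon and glycine metabolism, 2 parted upwards and 0 downwards (median 0.0043), and of 6 tested urea cycle and ornithine genes 1 and 0 (median 0.14), against those same shares.

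The cofactor carriers had 1 of 7 members higher in both MAdCAM1 libraries and 2 lower in both (19.7% and 18.7% of all genes). Slc25a51, which imports NAD+, was the most abundant at 71.9 CPM in IgG 1, 76.6 CPM in IgG 2, 67.3 CPM in MAdCAM1 1 and 68.3 CPM in MAdCAM1 2, which gave a log2 fold change of −0.13 (SE 0.13, edgeR adjusted p = 0.874). Slc25a17, a peroxisomal carrier of coenzyme A, FAD and NAD+, stood at 51.8 and 46.1 against 39.1 and 41.9 CPM and was the other member below both IgG libraries (log2 fold change −0.27). Slc25a26, which imports S-adenosylmethionine, was the member above them, at 4.61 and 3.83 against 4.97 and 4.92 CPM (log2 fold change 0.23). Their errors were 0.15 for Slc25a17 and 0.32 for Slc25a26 (SE, edgeR adjusted p = 0.773 and 0.919).

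Slc25a32, linked to folate and FAD transport, stood at 24.8, 63.2, 30.0 and 25.8 CPM. IgG 2 alone held a level above the other 3 libraries, and the log2 fold change of −0.65 became 0.17 without it. Slc25a16 and Slc25a42, both tied to coenzyme A transport, overlapped at 20.4, 26.3, 29.5 and 24.99 CPM and at 13.1, 7.36, 10.01 and 9.39 CPM.

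The pyrimidine nucleotide carriers Slc25a33 and Slc25a36 supply nucleotides for mitochondrial DNA and RNA. Slc25a33, with the higher mean, stood at 24.5, 43.2, 29.1 and 16.90 CPM, highest in IgG 2 and lowest in MAdCAM1 2 (log2 fold change −0.56, SE 0.42, edgeR adjusted p = 0.843). Without IgG 2 its log2 fold change was −0.10, and without MAdCAM1 2 −0.22. Slc25a36 stood at 20.9 and 17.7 against 22.8 and 28.2 CPM, above in both MAdCAM1 libraries, with a log2 fold change of 0.40 (SE 0.21), and of 0.23 without MAdCAM1 2. Slc25a36 supplied 46.1%, 29.1%, 43.9% and 62.5% of the tags of this pair, and the groups overlapped.

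Slc25a28 (mitoferrin-2) imports iron for haem and iron-sulfur clusters, and its erythroid counterpart Slc25a37 was not analysed here. Slc25a28 stood at 67.6, 38.3, 52.7 and 57.6 CPM, with the extremes of the range in the 2 IgG libraries (log2 fold change 0.059, SE 0.31, edgeR adjusted p = 0.982). It was 0.51 without IgG 1 and −0.30 without IgG 2. The erythroid markers in the table (3 of 7) summed to 13.1, 254, 32.7 and 43.1 CPM, highest in IgG 2, where Slc25a28 was lowest, and their part was not tested. Of 11 tested genes of iron-sulfur and haem synthesis, Isca1, at 28.8 and 30.3 against 37.4 and 40.8 CPM, was higher in both MAdCAM1 libraries and Cpox, at 40.3 and 45.0 against 32.3 and 32.4 CPM, lower in both, so 1 of 11 in each direction against 19.7% and 18.7% of all genes. The median of those 11 was 0.091.

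Slc25a39 and Slc25a40 carry glutathione into mitochondria. Slc25a39 was the abundant one, at 130.1, 156, 166 and 129 CPM, and the groups overlapped (log2 fold change 0.043, SE 0.20, edgeR adjusted p = 0.980). Slc25a40 (chromosome 5, 8472804 to 8504839) stood at 9.84 CPM in IgG 1, 9.52 CPM in IgG 2, 13.7 CPM in MAdCAM1 1 and 13.5 CPM in MAdCAM1 2. Both pairs of mice were close to each other and the groups parted, with a log2 fold change of 0.49 (SE 0.21, edgeR adjusted p = 0.738). Leaving out each library kept that value between 0.46 and 0.50. Slc25a40 supplied 7.04% and 5.75% of the tags of the pair in IgG and 7.64% and 9.50% in MAdCAM1, and the intervals of IgG 1 (6.06% to 8.12%) and MAdCAM1 1 (6.65% to 8.74%) overlapped.

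**Figure D3:**
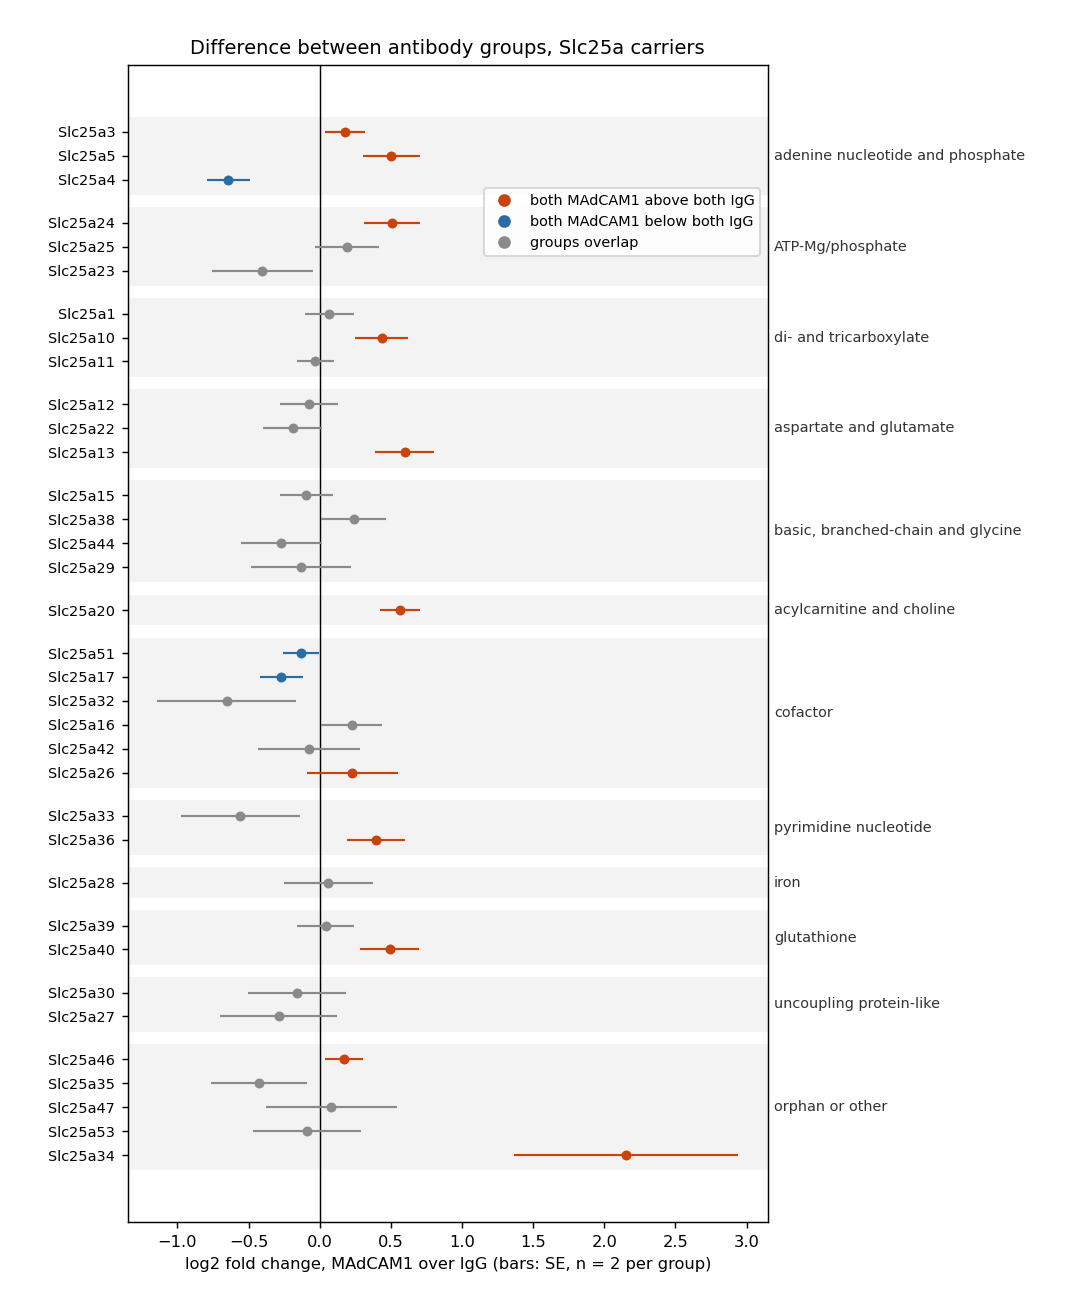
Log2 fold change, MAdCAM1 over IgG, of 35 of the 36 tested carriers by substrate class; points are edgeR estimates, bars are SE (n = 2 per group), and colour shows whether the groups overlapped. Most points lie within 0.3 of 0, Slc25a4 stands below 0, and Slc25a5, Slc25a10, Slc25a13, Slc25a20, Slc25a24 and Slc25a40 lie between 0.44 and 0.60.

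The uncoupling protein-like carriers were low. Slc25a30 stood at 7.11, 9.77, 8.96 and 6.15 CPM (log2 fold change −0.16, SE 0.34, edgeR adjusted p = 0.954) and Slc25a27 at 6.37, 4.64, 5.60 and 3.43 CPM, and both overlapped between the groups with their lowest value in MAdCAM1 2. Relatives in the family whose symbols follow another scheme were more abundant than these. Ucp2, an uncoupling protein, stood at 348 and 321 against 310.1 and 247 CPM and Mtch1, an outer membrane relative, at 204 and 257 against 170.4 and 200.1 CPM, lower in both MAdCAM1 libraries. Mtch2, which inserts proteins into the outer membrane, stood at 161 and 196 against 213 and 199 CPM, higher in both. Their log2 fold changes were −0.26, −0.32 and 0.21, none past edgeR's test (adjusted p = 0.834, 0.804 and 0.849).

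Carriers of unsettled or other function spanned a wide range of levels. Slc25a46, which sits in the outer membrane and bears on mitochondrial fusion and fission, stood at 53.7 CPM in IgG 1, 57.6 CPM in IgG 2, 62.4 CPM in MAdCAM1 1 and 62.9 CPM in MAdCAM1 2, which gave a log2 fold change of 0.17 (SE 0.13, edgeR adjusted p = 0.845). Slc25a35 stood at 32.9, 29.4, 30.0 and 16.4 CPM, and MAdCAM1 2 alone was low: without that library the log2 fold change of −0.43 became −0.053. Slc25a47 overlapped at 7.68, 9.40, 12.5 and 5.63 CPM. Its counts are identical in all libraries to those of the microRNA gene Mir345, so the tags may belong to either. Slc25a53 was even at 2.39, 2.04, 1.96 and 2.20 CPM.

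Slc25a34 (chromosome 4, 141346130 to 141351151), an orphan carrier, had the largest log2 fold change of the tested carriers but few tags. It had 9 tags in IgG 1 (95% Poisson interval 4.12 to 17.1), 2 in IgG 2 (0.242 to 7.22), 26 in MAdCAM1 1 (16.98 to 38.1) and 17 in MAdCAM1 2 (9.90 to 27.2). The counting intervals of IgG 1 and MAdCAM1 2 overlapped. Its log2 fold change of 2.15 (SE 0.79, edgeR adjusted p = 0.718) ran from 1.49 without IgG 2 to 3.46 without IgG 1. Only the MAdCAM1 libraries lay above the 0.632 CPM (before TMM scaling) that the filter required, so that a difference in this direction was built into its entry. Slc25a45 had 3, 2, 11 and 4 tags and was not tested.

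Genes that act on the carriers as a whole were read in the same way. The import route that inserts carriers into the inner membrane (TIM22 complex, small Tim chaperones and outer membrane receptors) had 13 of 13 genes tested, of which 2 parted upwards and 2 downwards in the MAdCAM1 group (19.7% and 18.7% of all genes), at a median log2 fold change of −0.11. Its most abundant members were the chaperones Timm13 at 218 and 234 against 242 and 236 CPM, Timm8b at 152, 219.9, 224 and 196 CPM and Timm10b at 148, 189, 181 and 183 CPM. Tomm70a, the receptor to which carrier precursors bind, stood at 138 and 129 against 127 and 120.3 CPM, lower in both by a log2 fold change of −0.11. Mitochondrial content and biogenesis genes parted upwards for 4 of 15 genes and downwards for 2, against the same shares of all genes, at a median of 0.026. Among them Hspa9, the matrix chaperone of protein import, overlapped at 201, 215, 216 and 208 CPM, and Esrra, a nuclear receptor that drives mitochondrial genes, stood at 85.6 and 63.6 against 103 and 98.01 CPM.

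Of 18 tested mitochondrial transporters outside the Slc25 family, 9 were higher in both MAdCAM1 libraries and 0 lower in both (19.7% and 18.7% of all genes), with a median of 0.22 on the log2 scale. Vdac2, a channel of the outer membrane, stood at 227 and 237 against 313 and 288 CPM, Mpc1, a subunit of the pyruvate carrier, at 201 and 213 against 261 and 242 CPM, and Mcu, the calcium uniporter, at 155 and 103 against 191 and 184 CPM. Ghitm, a proton and calcium exchanger of the inner membrane, overlapped at 213, 243, 239.7 and 267 CPM. None of the 18 passed edgeR's test, and at an unadjusted p under 0.05 there were 0. Epithelial markers had a median log2 fold change of 0.65 in the same comparison, which is above the log2 fold change of each tested carrier but Slc25a34. Epcam, an adhesion molecule on all colon epithelial cells, stood at 1944 and 2049 against 3184 and 2810.5 CPM (log2 fold change 0.59), set here beside 0.50 for Slc25a5, 0.56 for Slc25a20 and −0.64 for Slc25a4. The part of epithelial content in the carrier values was not tested, and cell number and RNA per cell cannot be told apart here.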

How the data were processed

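Per the labels' protocols, CAGE libraries were made from total RNA with an integrity number above 7.0, and single-end reads had 75 nt. Tags were mapped by the authors to GRCm39 with BWA 0.7.17 and HISAT2 2.0.5 and clustered with RECLU. Clusters were dropped if under 0.1 CPM, over 200 bp, or at an irreproducible discovery rate (IDR) that reached 0.1. The step from clusters to genes, and whether it used strand, is not given in the sources used here. The deposited values are raw tag counts per gene, and no column was left out.

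Counts were filtered with filterByExpr by group (14331 of 14979 genes kept), scaled by TMM and tested in R 4.3.3 with edgeR 4.0.16 (glmQLFit with robust set, glmQLFTest, MAdCAM1 minus IgG), with Benjamini-Hochberg adjustment over all genes and a threshold of 0.05. The SE of a log2 fold change was derived from this test, as its absolute value over the square root of the F statistic, which is moderated over all genes. The script was tested on simulated data with changes planted in 50 genes at each fold. It recovered 5 of 50 at 2-fold, 28 at 4-fold, 35 at 8-fold and 50 at 16-fold, and made 25 false calls. Most planted 2-fold changes were thus missed. False calls made up a larger part of the simulated calls than the threshold of 0.05. In the real data the same test called 0% of all genes, although log2 fold changes ran from −4.93 to 7.66. The simulated recovery at large folds may therefore not carry over to the real data. In the real data, 1 of 36 tested carriers had an absolute log2 fold change of at least 1, so the lack of calls does not show equal levels. Nothing in the labels ties libraries of the same number to one animal, so no block was used, and p-values measure only the spread between these libraries. All 37 carriers matched GENCODE M39 by identifier, and another protein-coding or lncRNA gene overlaps 23 of them on the other strand and Slc25a39 on its own strand.

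The carriers, substrate classes and gene lists were chosen with earlier results of these data known, and 11 further family genes of the classes were not analysed here. One carrier is included in all counts, sums and medians but is not reported by itself here. By the rule for named genes, values by library are given for carriers with a mean of at least 1 CPM, and errors and p-values for the most abundant of each class and those without overlap at an absolute log2 fold change of at least 0.4. Up to 3 genes of highest mean level come from each other list. Slc25a34, Slc25a45, Got1, Cpt2, Isca1, Cpox, Tomm70a, Esrra, Mcu, Mzb1, Cd79a, Cd79b, Ngp, Camp and Aqp8, other errors given, and the shares among paralogues lie outside this rule and were chosen with their values known. The alternatives tried were RLE and library size scaling, 2 other filters, DESeq2 1.42.0, limma-voom (limma 3.58.1), edgeR's exact test, a replicate block and leaving out each library.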

Additional observations from a re-analysis of the deposited data

How the results depend on the processing

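No carrier was called under any of the 13 alternatives run, including DESeq2, limma-voom, the edgeR exact test and the replicate block, and 20 of 36 kept the sign of their log2 fold change under all of them. DESeq2 gave no adjusted p for Slc25a34. The median log2 fold change of the carriers was between −0.026 and 0.078 with 1 library left out. The number lower in both MAdCAM1 libraries was 7 with library size scaling, and with 1 library left out it was 5 to 13, and the number higher 12 to 17. Leaving out 1 library sets fewer values against each other. Library size scaling turned the sign of Slc25a1 (−0.030), Slc25a28 (−0.040), Slc25a39 (−0.055) and Slc25a47 (−0.017), and limma-voom that of Slc25a47 (−0.033). With the replicate number as a block, 0 carriers were called, the median was −0.011 and Slc25a47 stood at −0.015. Deviations of same-numbered libraries from their group means had a weak negative correlation (−0.16 across genes, which are not replicates). A crossed pairing, added after seeing the data, called 0 carriers, with Slc25a47 at −0.015. The labels tie no numbers across the groups, so neither block is a pairing of the design.

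Leaving out 1 library in turn took the log2 fold change across 0 for 16 carriers. Among them, the ranges were −0.095 to 0.23 for Slc25a1, −0.11 to 0.025 for Slc25a11, −0.26 to 0.11 for Slc25a12, −0.21 to 0.0093 for Slc25a15 and −0.79 to 0.083 for Slc25a23. They were −0.68 to 0.024 for Slc25a27, −0.30 to 0.51 for Slc25a28, −0.37 to 0.075 for Slc25a29, −0.46 to 0.087 for Slc25a30 and −1.19 to 0.17 for Slc25a32. For Slc25a39 they were −0.15 to 0.21, for Slc25a42 −0.44 to 0.38, for Slc25a44 −0.54 to 0.044, for Slc25a47 −0.60 to 0.54 and for Slc25a53 −0.20 to 0.014. The cause was not tested. With 2 mice a group the lone library of a group is assumed to vary like the others.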
